A study of Mus musculus with 50 samples.

Results

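The genes described here are 10 core members of the Notch pathway, taken by symbol from a raw count table of 45792 mouse genes. They are the 4 receptors Notch1, Notch2, Notch3 and Notch4, the 3 ligands Jag1, Jag2 and Dll4, and the 3 target transcription factors Hes1, Hey1 and Heyl. All 10 symbols were found, each in 1 row. The main pattern was that transcripts of all 10 members were higher in liver tumours than in liver in at least 1 comparison. For Heyl this held in only 1 comparison. For Jag2 it rested on alternative fits, since a filter on low counts removed it from the main ones. In single comparisons 26.9% to 27.7% of all genes tested were higher in tumours. The share higher in at least 1 of the 3 comparisons was not computed, so the count of 10 has no background. Notch4 was higher in every tumour than in any liver on the same diet, but the share of all genes that separate in this way was not computed. Dll4, Hes1 and Hey1 were higher in liver of mice on the ALIOS diet, near the threshold of the test, and each lost its call in an alternative fit.

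Notch receptors are membrane proteins that are activated by ligands carried on a neighbouring cell. Ligand binding exposes the receptor to a metalloprotease and then to gamma-secretase, which frees an intracellular domain that enters the nucleus, binds the DNA-binding protein RBPJ and turns on genes of the Hes and Hey families. In liver the pathway is best known for the formation of bile ducts, which needs Jag1 and Notch2, and for endothelial cells, in which Notch1, Notch4, Dll4 and Hey1 are characteristic, while Notch3 is characteristic of pericytes and vascular smooth muscle.

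The libraries came from bulk liver tissue of C3H/He mice harvested at 48 weeks, and each library is named here as the labels name it, N for non-tumour liver and T for tumour. Mice received a control diet or the American lifestyle (ALIOS) diet, which is rich in fat and trans-fat and given with fructose in the drinking water, and some also received diethylnitrosamine (DEN), a liver carcinogen. There were 12 control diet livers, 11 ALIOS diet livers, 13 spontaneous tumours on the ALIOS diet, 1 spontaneous tumour on the control diet (T7), 5 DEN tumours on the control diet and 8 DEN tumours on the ALIOS diet. The labels name no engineered allele, and no DEN-treated liver without tumour was analysed here, so effects of DEN and of tumour tissue cannot be told apart in the DEN comparisons.

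Tumour T1 was left out of every comparison, since its 8 hepatocyte markers summed to 2859 CPM (counts per 1000000 counts of the library) where the other libraries held 75144 or more, and its 5 kidney markers summed to 27502 CPM where the others held 5.58 or less. The remaining 49 libraries held 23798251 to 45751398 counts each. Afp, a fetal protein used as a tumour marker, was at 1.57 CPM or less in every liver and at 3.60 CPM or more in every tumour. The tumours with the lowest Afp were T2 with 3.60 CPM, T6 with 5.05 CPM, T23 with 19.8 CPM and T21 with 46.0 CPM, while T24 had the highest Afp, with 2567 CPM, and the largest sum of mural and stellate markers. The labels tie no library to a named mouse, so p-values measure the spread between libraries.

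In the mouse genome (build GRCm38) the members lie on 6 chromosomes. Notch1 (chr2:26457903-26516663, minus strand), Jag1 (chr2:137081456-137116644, minus strand) and Dll4 (chr2:119325784-119335962, plus strand) share chromosome 2. Notch3 (chr17:32120820-32166852, minus strand) and Notch4 (chr17:34564268-34588503, plus strand) lie on chromosome 17, and Notch2 (chr3:98013527-98150361, plus strand) and Hey1 (chr3:8663359-8667256, minus strand) on chromosome 3. Jag2 lies on chromosome 12 (chr12:112907819-112929776, minus strand), Hes1 on chromosome 16 (chr16:30064384-30067796, plus strand) and Heyl on chromosome 4 (chr4:123233556-123249875, plus strand). Counts cover exons, and exons of Notch1, Notch2, Notch3 and Dll4 overlap exons of short non-coding genes. The overlapping genes held at most 58 counts in any library (Gm14207, antisense to Dll4), where Dll4 held 63 to 528. Whether the counting used strand was not stated, so how reads in the overlaps on opposite strands were assigned is not known. These are the overlaps of Dll4 and Gm14207, of Notch1 with 0610009E02Rik and Gm13568, and of Notch3 and Gm17276. Notch2 and Gm42820 share 541 exonic bases on the same strand, so strand cannot separate their reads there. Gm17276 held 0 to 8 counts, where Notch3 held 7 to 383.

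Windows from 250 bases before to 50 after the start, from RefSeq (GRCm38.p6), were matched for 7 of the 10 members; Hes1, Hey1 and Heyl had no entry. The motifs searched, on both strands, were TGGGAA, the core of the RBPJ site, and CACGTG and CACGCG, which HES and HEY proteins bind in vitro. CACGCG was present in 4 of the 7 windows (Dll4, Jag1, Notch2 and Jag2), against 9.27% of all 32851 windows in the table. TGGGAA was in 0 of the 7 (25.6% of all windows), and CACGTG also in 0 of the 7 (7.15% of all windows). CACGTG reads the same on both strands, and no position matched more than 1 motif. A match is only a description of the letters, as is its absence. The stretches below are upstream of 3 members with a match, one of them a receptor and the others ligands, and of Notch4, the receptor with the clearest separation of tumours from liver, which had none of the motifs. Capitals mark CACGCG.
Notch2 (chr3:98013408-98013507, plus strand): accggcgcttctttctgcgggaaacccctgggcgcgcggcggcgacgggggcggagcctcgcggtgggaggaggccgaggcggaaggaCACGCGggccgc
Jag1 (chr2:137116651-137116750, minus strand): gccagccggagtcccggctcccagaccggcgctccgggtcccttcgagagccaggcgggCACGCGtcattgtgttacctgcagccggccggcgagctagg
Dll4 (chr2:119325544-119325643, plus strand): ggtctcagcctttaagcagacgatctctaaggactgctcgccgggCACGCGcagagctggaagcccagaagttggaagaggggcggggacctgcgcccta
Notch4 (chr17:34564115-34564264, plus strand): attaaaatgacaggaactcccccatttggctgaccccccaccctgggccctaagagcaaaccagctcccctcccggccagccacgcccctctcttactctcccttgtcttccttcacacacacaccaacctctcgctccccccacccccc

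Levels between genes were compared as CPM per kilobase of exon. In control diet liver Notch2 was the highest of the 10 members, with a mean of 5.08 ± 0.525 CPM per kilobase (SD, n = 12), and Hes1 was next with 2.97 ± 0.771. Notch1 followed with 1.04 ± 0.184, then Dll4 with 0.794 ± 0.200, Jag1 with 0.619 ± 0.122 and Notch4 with 0.419 ± 0.0919. The levels of Dll4 and Jag1 lay within each other's spread, and those of Heyl (0.283 ± 0.115), Notch3 (0.0888 ± 0.0447), Hey1 (0.0854 ± 0.0605) and Jag2 (0.00637 ± 0.00686) were lower, with Notch3 and Hey1 not separated. In ALIOS diet liver Notch2 (4.70 ± 0.421 CPM per kilobase, SD, n = 11) and Hes1 (4.26 ± 0.802) lay within each other's spread, and Hes1 exceeded Notch2 in N14, N22 and N23. Their order there depends on the length used: per kilobase of the longest transcript Hes1 had a mean of 5.92 and Notch2 of 4.83, while Notch2 stayed first in control diet liver (5.22 against 4.12).

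In tumours Hes1 stood first and Notch2 second. Hes1 reached 13.9998 ± 4.30 CPM per kilobase in spontaneous tumours on the ALIOS diet (SD, n = 12), 17.2 ± 5.62 in DEN tumours on the control diet (n = 5) and 11.9 ± 3.80 in DEN tumours on the ALIOS diet (n = 8). Notch2 was at 6.25 ± 1.12, 6.33 ± 0.608 and 5.64 ± 2.03 CPM per kilobase in the same groups. Jag2 was the lowest of the 10 members in every group, livers and tumours alike.

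**Figure D1:**
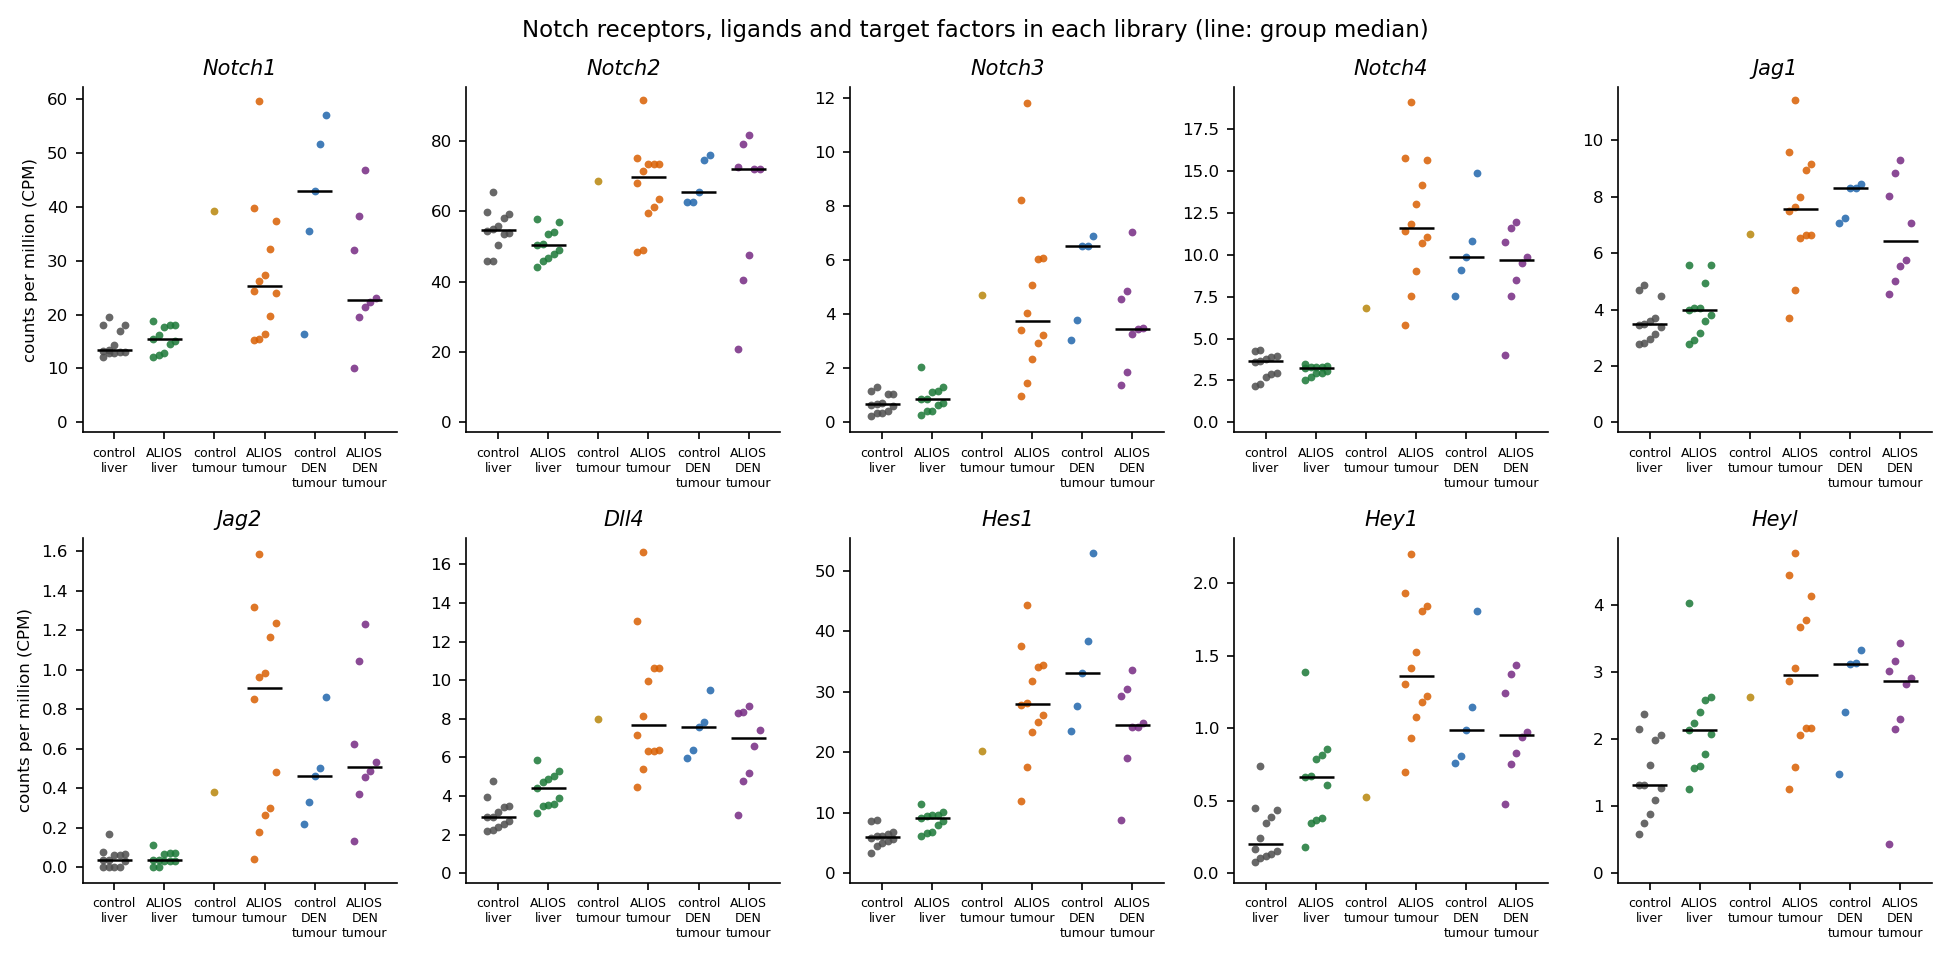
Level of each of the 10 members in every library, in CPM on a linear axis with its own scale for each gene; each point is 1 library of the group named on the horizontal axis, the line is the group median, and T7 is the only control diet tumour without DEN. Notch4 is higher in every tumour than in the livers on the same diet, Hes1 in every tumour but T24, Jag2 is close to 0 in every liver, and Heyl overlaps between livers and tumours on the same diet in every group of more than 1 tumour. The share of all genes that separate in this way was not computed.

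Among the receptors, Notch4, Notch3 and Notch1 were higher in tumours in all 3 comparisons with liver, and Notch2, the receptor with the highest level, changed least. For all genes, 52.8% of 14183 genes tested were called (edgeR quasi-likelihood test with Benjamini-Hochberg adjustment, adjusted p below 0.05) between spontaneous tumours and liver on the ALIOS diet, with 26.9% higher and 25.9% lower. All 4 receptors were called higher there, and 8 of the 9 members that passed the filter on low counts. DEN tumours on the ALIOS diet had 6 of 9 members higher, where 47.5% of all genes were called, 27.7% higher and 19.8% lower. DEN tumours on the control diet had 9 of 9 higher, where 51.7% were called, 27.3% higher and 24.4% lower. The median log2 fold change of the tested members was 0.98, 0.76 and 1.48 in the 3 comparisons, beside 0.01, 0.08 and 0.03 over all genes tested. The comparisons on the ALIOS diet share their 11 livers, so their calls are not independent.

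Notch4, the receptor best known from endothelium, ranged from 2.16 to 4.31 CPM in control diet livers (median 3.64) and from 2.54 to 3.51 CPM in ALIOS diet livers (median 3.22). In spontaneous tumours on the ALIOS diet it ranged from 5.79 to 19.1 CPM (median 11.6), and in DEN tumours on the same diet from 4.04 to 11.96 CPM (median 9.69). In the 5 DEN tumours on the control diet the values were 7.52, 9.09, 9.87, 10.8 and 14.9 CPM. Every tumour was above every liver on the same diet, with no overlap in any of the 3 comparisons. The share of all genes without overlap was not computed. A separation of groups, for Notch4 or for any gene described below, therefore does not set it apart from genes in general. The log2 fold change of Notch4 was 1.93 ± 0.15 (SE, edgeR adjusted p = 2.9e-08) in spontaneous tumours. In DEN tumours it was 1.58 ± 0.15 on the ALIOS diet (edgeR adjusted p = 1.9e-07) and 1.64 ± 0.17 on the control diet (edgeR adjusted p = 1.3e-07).

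Notch3, characteristic of pericytes, was low in liver, at 0.230 to 1.31 CPM in control diet livers (median 0.680) and 0.291 to 2.05 CPM in ALIOS diet livers (median 0.860). It ranged from 0.968 to 11.8 CPM in spontaneous tumours (median 3.74) and from 1.37 to 7.07 CPM in DEN tumours on the ALIOS diet (median 3.47). The 5 DEN tumours on the control diet held 3.05, 3.79, 6.53, 6.55 and 6.90 CPM, all above every control diet liver. On the ALIOS diet 10 of 12 spontaneous tumours (not T2 and T3) and 6 of 8 DEN tumours (not T23 and T25) exceeded the highest liver. The log2 fold change was the largest of the tested members in each comparison: 2.35 ± 0.38 in spontaneous tumours (edgeR adjusted p = 2.1e-05), 2.08 ± 0.34 in DEN tumours on the ALIOS diet (6.4e-05) and 2.92 ± 0.31 in DEN tumours on the control diet (2.7e-07).

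Notch1 was at 12.1 to 19.6 CPM in control diet livers (median 13.4) and 12.1 to 18.8 CPM in ALIOS diet livers (median 15.4). Spontaneous tumours on the ALIOS diet spread from 15.3 to 59.7 CPM (median 25.3), and DEN tumours on that diet from 10.1 to 46.9 CPM (median 22.7). The DEN tumours on the control diet held 16.3, 35.6, 43.0, 51.6 and 57.0 CPM. Tumours varied more than livers, with a coefficient of variation of 45.5% in spontaneous tumours against 15.4% in ALIOS diet livers, and T2, T10, T13, T21 and T24 did not exceed the highest liver on their diet. Notch1 had a log2 fold change of 0.82 ± 0.19 in spontaneous tumours (edgeR adjusted p = 0.00096), 0.80 ± 0.20 in DEN tumours on the ALIOS diet (0.0031) and 1.48 ± 0.19 in DEN tumours on the control diet (2.8e-06).

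Notch2, the receptor needed for bile duct formation, was at 45.9 to 65.5 CPM in control diet livers (median 54.7) and 44.1 to 58.0 CPM in ALIOS diet livers (median 50.4). It reached 48.3 to 91.7 CPM in spontaneous tumours (median 69.7), with 10 of 12 above the highest ALIOS diet liver, and the log2 fold change was 0.38 ± 0.09 (edgeR adjusted p = 0.0012). DEN tumours on the ALIOS diet spread on both sides of the livers: T24 (20.8 CPM) and T25 (40.5 CPM) fell below all of them and T23 (47.5 CPM) within them, while the other 5 held 72.0 to 81.7 CPM. The difference did not pass the test with all 8 (0.28 ± 0.18, edgeR adjusted p = 0.21), and passed it without T24 (0.41, edgeR adjusted p = 0.0070). On the control diet the 5 DEN tumours held 62.5, 62.8, 65.4, 74.6 and 76.1 CPM, with 2 above the highest liver. The log2 fold change there was 0.33 ± 0.09 (edgeR adjusted p = 0.0047), and the call was lost with all 6 groups in 1 fit (edgeR adjusted p = 0.13).

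The share of each receptor differed between livers and tumours. Notch2 made up a median of 76.6% of the summed receptor CPM per kilobase in control diet livers (73.1% to 81.4%) and 75.0% in ALIOS diet livers (72.0% to 76.8%). In spontaneous tumours on the ALIOS diet its median share was 63.0% (48.2% to 68.1%), in DEN tumours on the ALIOS diet 63.0% (48.2% to 66.0%) and in DEN tumours on the control diet 55.2% (54.4% to 65.6%). No tumour reached the lowest share seen in a liver. The median Notch4 share was 6.31% and 6.26% in livers on the control and ALIOS diets, against 13.95% in spontaneous tumours and 12.8% and 10.8% in DEN tumours on the ALIOS and control diets. The median Notch3 share was 1.34% and 1.48% in the livers and 4.26% to 6.29% in the 3 tumour groups. Notch4 shares overlapped on the control diet, with up to 9.13% in livers and 7.34% or more in DEN tumours, and not on the ALIOS diet. Notch3 shares overlapped on the ALIOS diet, with up to 3.70% in livers and 1.79% or more in spontaneous tumours, and not on the control diet. These shares were described and not tested, and the length used for Notch1 affects them, since the union of its exons (14232 bases) is longer than its longest transcript (9488 bases).

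**Figure D2:**
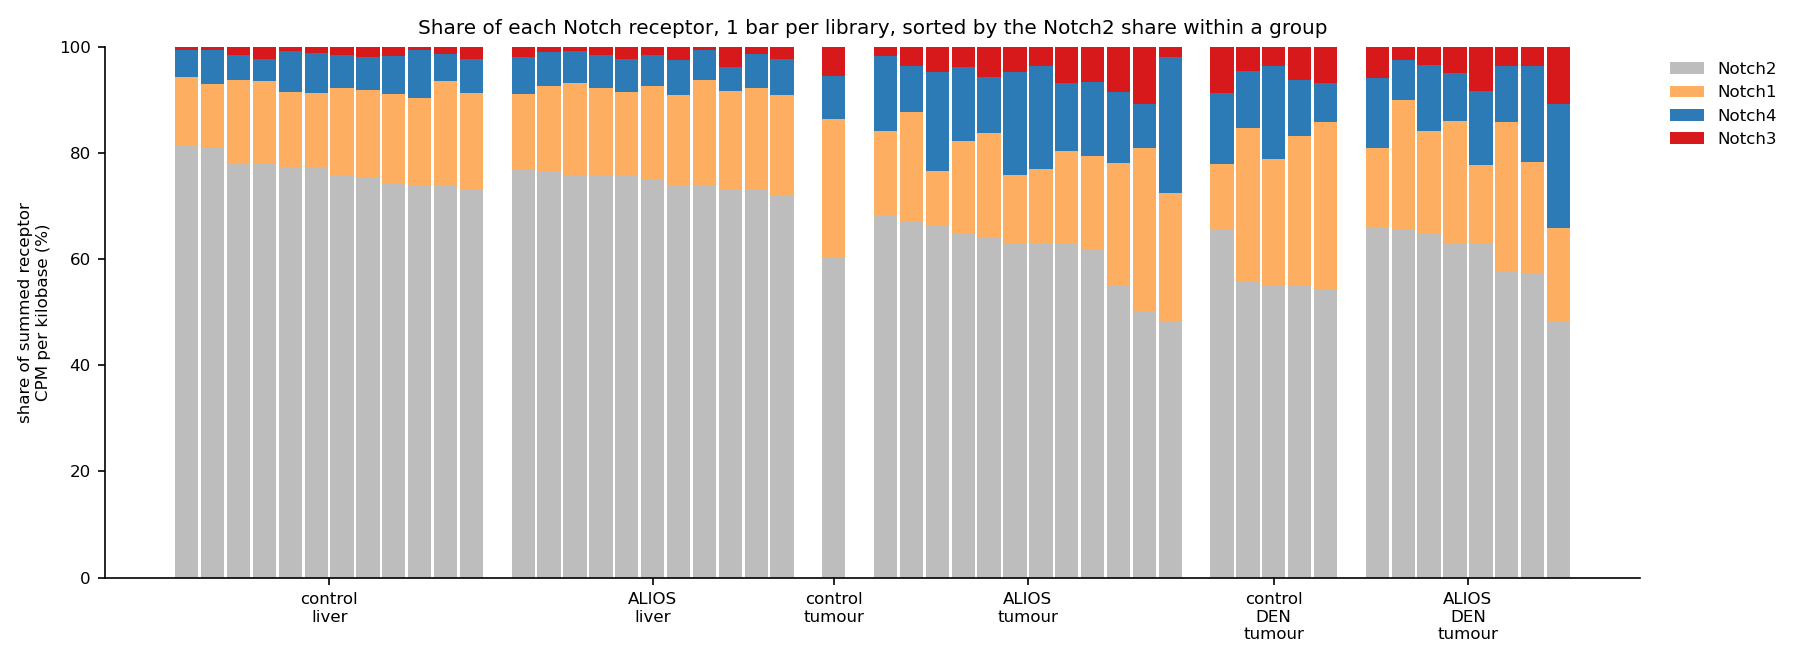
Share of each Notch receptor in the summed receptor CPM per kilobase of exon, in percent, with 1 bar per library, grouped by diet and tissue and sorted by the Notch2 share within a group. Notch2 (grey) takes 72.0% or more of every liver bar and 68.1% or less of every tumour bar. The median widths of the Notch4 (blue) and Notch3 (red) segments are larger in tumours, and some tumour bars lie within the range of the livers.

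Both ligands that could be tested against liver, Jag1 and Dll4, were called higher in all 3 comparisons. Jag1, the ligand that is mutated in bile duct paucity of Alagille syndrome, was at 2.76 to 4.86 CPM in control diet livers (median 3.47) and 2.79 to 5.58 CPM in ALIOS diet livers (median 3.99). It was at 3.72 to 11.4 CPM in spontaneous tumours (median 7.57) and 4.55 to 9.29 CPM in DEN tumours on the ALIOS diet (median 6.42). The 5 DEN tumours on the control diet lay close together, at 7.08, 7.23, 8.31, 8.32 and 8.45 CPM, and above every control diet liver, while T2, T13, T23, T24 and T25 did not exceed the highest ALIOS diet liver. Jag1 had a log2 fold change of 0.87 ± 0.16 in spontaneous tumours (edgeR adjusted p = 0.00011), 0.76 ± 0.17 in DEN tumours on the ALIOS diet (0.0011) and 1.14 ± 0.13 in DEN tumours on the control diet (9.0e-07).

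Dll4, the ligand of sprouting and arterial endothelium, was at 4.45 to 16.6 CPM in spontaneous tumours (median 7.65), against 3.10 to 5.85 CPM in ALIOS diet livers (median 4.43). DEN tumours on the ALIOS diet held 3.01 to 8.66 CPM (median 7.005). The DEN tumours on the control diet held 5.96, 6.39, 7.60, 7.82 and 9.497 CPM, against 2.19 to 4.80 CPM in control diet livers (median 2.91). Groups did not overlap in control diet mice, while T2, T6, T23, T24 and T25 were within or below the ALIOS diet livers. For Dll4 it came to 0.98 on the log2 scale ± 0.19 in spontaneous tumours (edgeR adjusted p = 0.00015), 0.61 ± 0.18 in DEN tumours on the ALIOS diet (0.0092) and 1.31 ± 0.17 in DEN tumours on the control diet (2.4e-06).

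Jag2 was nearly undetected in liver, with 0 to 3 counts per library in both diets. Tumours held 1 to 63 counts in spontaneous tumours on the ALIOS diet, 5 to 44 in DEN tumours on the ALIOS diet and 7, 10, 14, 20 and 29 in DEN tumours on the control diet. All tumours but T2 (1 count) exceeded the highest liver on their diet. The filter on low counts removed Jag2 from the comparisons with liver. Without that filter the log2 fold change was 4.05 ± 0.53 in spontaneous tumours (edgeR adjusted p = 2.0e-06), 3.69 ± 0.46 in DEN tumours on the ALIOS diet (3.8e-06) and 3.40 ± 0.51 in DEN tumours on the control diet (1.7e-05). The size of these fold changes rests on livers with 3 counts or fewer.

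Of the 3 target factors, Hes1 was called higher in all 3 comparisons with liver, Hey1 in the comparison of spontaneous tumours and in that on the control diet, and Heyl only in the comparison on the control diet. Hes1, a repressor that is a direct target of Notch but also responds to other signals, was at 3.39 to 8.83 CPM in control diet livers (median 5.98) and 6.20 to 11.4 CPM in ALIOS diet livers (median 9.10). Spontaneous tumours on the ALIOS diet held 12.001 to 44.3 CPM (median 28.0), so that the lowest tumour, T2, was above the highest liver. DEN tumours on that diet held 8.75 to 33.6 CPM (median 24.5), with 7 of 8 above every liver and T24 (8.75 CPM) among them. The 5 DEN tumours on the control diet held 23.5, 27.6, 33.1, 38.5 and 52.9 CPM, all above every control diet liver. Hes1 had log2 fold changes of 1.68 ± 0.17 (edgeR adjusted p = 1.0e-07), 1.501 ± 0.18 (2.9e-06) and 2.55 ± 0.18 (1.3e-09) for spontaneous tumours and for DEN tumours on the ALIOS and control diets.

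Hey1, which marks Notch activity in endothelium, was a low-count gene, with 2 to 42 counts per liver and 18 to 78 per tumour. It ranged from 0.181 to 1.39 CPM in ALIOS diet livers (median 0.663), from 0.697 to 2.21 CPM in spontaneous tumours (median 1.36) and from 0.475 to 1.44 CPM in DEN tumours on the ALIOS diet (median 0.954). In spontaneous tumours the log2 fold change was 1.11 ± 0.26 (edgeR adjusted p = 0.00090), with 6 of 12 tumours above the highest liver. In DEN tumours on the ALIOS diet it was 0.66 ± 0.30 and did not pass (edgeR adjusted p = 0.076), and it passed without T23 (0.74, edgeR adjusted p = 0.040). The DEN tumours on the control diet held 0.758, 0.806, 0.990, 1.15 and 1.81 CPM, all above the control diet livers (0.0753 to 0.738 CPM, median 0.204). The log2 fold change there was 2.01 ± 0.38 (edgeR adjusted p = 0.00023).

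Heyl, a relative of Hey1 found in vascular smooth muscle, was called in 1 of the 3 comparisons with liver. It was at 0.577 to 2.38 CPM in control diet livers (median 1.31) and 1.25 to 4.03 CPM in ALIOS diet livers (median 2.13). Spontaneous tumours held 1.25 to 4.78 CPM (median 2.96), and DEN tumours on the ALIOS diet 0.441 to 3.44 CPM (median 2.87). The groups on the ALIOS diet overlapped, and the log2 fold changes of 0.41 ± 0.22 (edgeR adjusted p = 0.12) and 0.21 ± 0.28 (0.55) did not pass. DEN tumours on the control diet held 1.48, 2.40, 3.12, 3.13 and 3.33 CPM, and 4 of 5 exceeded the highest control diet liver, with a log2 fold change of 0.91 ± 0.28 (edgeR adjusted p = 0.0098).

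**Figure D3:**
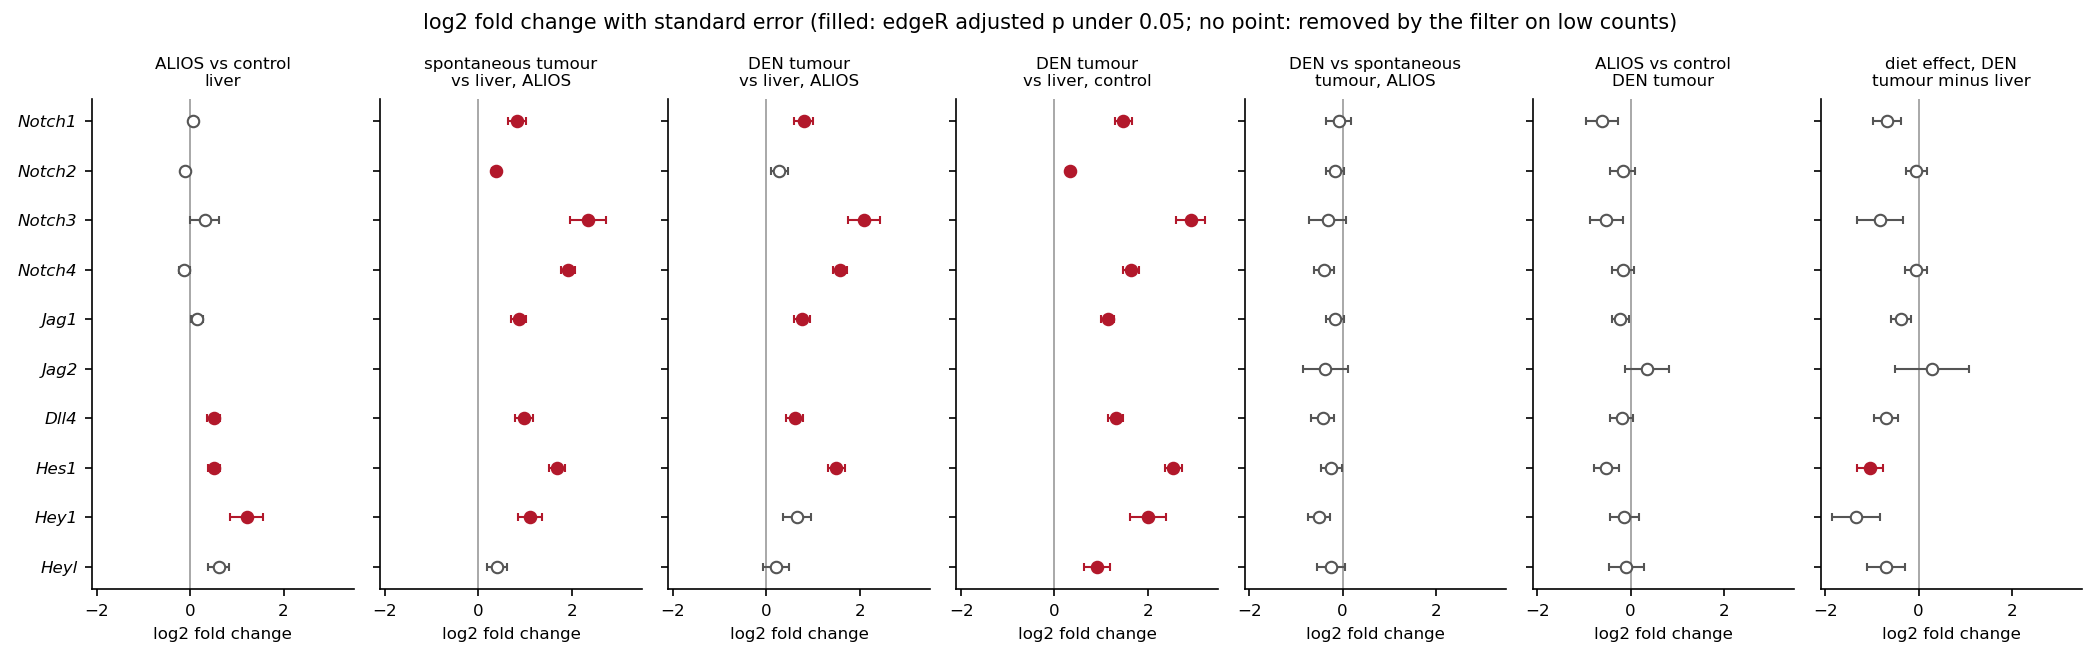
log2 fold change of each member in the 7 comparisons, with the standard error as a horizontal bar; filled red points passed the edgeR test at an adjusted p below 0.05, open points did not, and Jag2 has no point where the filter on low counts removed it. In the 3 comparisons of tumour with liver every tested point lies to the right of 0 and 8, 6 and 9 of 9 are filled, while the comparisons between tumour groups hold no filled point.

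Tumours differed in how many members were raised. The number of members, of 10, above the highest ALIOS diet liver was 2 in T2, 7 in T6 and 4 in T23, against 6 to 10 in the other spontaneous tumours and 3 to 9 in the other DEN tumours on that diet. T24 and T25, with 3 and 4 members above the range, had Afp of 2567 and 690 CPM, so low Afp was not shared by all tumours with few members raised. Albumin (Alb), a hepatocyte product, was at 54155 to 85101 CPM in T2, T3, T6, T23, T24 and T25 and at 119273 CPM or more in every other tumour, and its part in these counts was not tested. Alb was called higher in tumours than in liver in all 3 comparisons. The 8 hepatocyte markers summed to 75144 to 141685 CPM in ALIOS diet livers, against a median of 178876 CPM in spontaneous tumours on that diet. Among the DEN tumours on the control diet, all 5 had 8 to 10 members above the highest control diet liver. The share of all genes above the highest liver was not computed for single tumours. The counts of members above the livers therefore do not set the members apart from genes in general. Leaving out T2, or T2 with T3 and T6, gave 8 of 9 members called in spontaneous tumours. Of all genes these fits called 7919 of 14100 and 8781 of 14245, against 7487 of 14183 in the main fit. Without T23 and T24, 7 of the same 9 members were called in DEN tumours on the ALIOS diet, with Notch2 added to the 6. Of all genes that fit called 8366 of 14604, against 6851 of 14434 in the main fit.

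The diet alone was compared between 11 ALIOS and 12 control diet livers. Dll4, Hes1 and Hey1 were higher on the ALIOS diet, 3 of the 9 members tested, and none was lower, where 11.2% of 13723 genes were called, 6.73% higher and 4.51% lower. The median log2 fold change of the 9 members was 0.31, beside -0.02 over all genes tested. The 4 receptors and Jag1 did not pass, with log2 fold changes between -0.13 and 0.31.

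Hes1 was at 6.20 to 11.4 CPM on the ALIOS diet and 3.39 to 8.83 CPM on the control diet, as above, with 11 of 11 ALIOS diet livers over the control median and 6 over the control maximum. The log2 fold change was 0.51 ± 0.13 (edgeR adjusted p = 0.017). For Dll4, 11 of 11 ALIOS diet livers were over the control median and 4 over the control maximum of 4.80 CPM, with a log2 fold change of 0.50 ± 0.14 (edgeR adjusted p = 0.021). Hey1 had 10 of 11 over the control median and a log2 fold change of 1.21 ± 0.34 (edgeR adjusted p = 0.026). Heyl showed 0.61 ± 0.22 and did not pass (edgeR adjusted p = 0.072).

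These calls were near the threshold. With all 6 groups in 1 fit Dll4 and Hes1 no longer passed (edgeR adjusted p = 0.093 and 0.078). Without liver N17, which had the highest Hey1 (1.39 CPM) and Heyl (4.03 CPM) of the ALIOS diet livers, Hey1 no longer passed (1.03, edgeR adjusted p = 0.063). Heyl passed with DESeq2 (0.61, DESeq2 adjusted p = 0.045), and with edgeR without N9 (0.67, edgeR adjusted p = 0.048), without N10 (0.71, 0.036) or without N13 (0.67, 0.040).

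Markers of other cell types also moved with diet in liver. Of 6 macrophage markers 5 rose, their sum going from 97.1 to 215 CPM in control diet livers to 135 to 441 CPM in ALIOS diet livers, and Epcam and Spp1 rose among 6 cholangiocyte markers tested, with sums of 22.1 to 66.1 CPM and 25.3 to 236 CPM. Among mural and stellate markers Pdgfrb rose (0.60 ± 0.20, edgeR adjusted p = 0.048), 1 of 8 tested, with sums of 97.8 to 192 CPM on the control diet and 140 to 294 CPM in ALIOS diet livers, and of 2 T cell markers tested Cd3e rose (1.84 ± 0.38, edgeR adjusted p = 0.0052). N17 had the highest cholangiocyte and mural sums. None of the 10 endothelial markers was called, and their sum was alike, 193 to 307 CPM in control diet livers and 192 to 293 CPM in ALIOS diet livers. In these bulk libraries a change in the number of cells of a type and a change in RNA per cell cannot be told apart, and the part of cell composition in the Notch results was not tested.

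In tumours the endothelial sum was also close to that of liver. It was 154 to 393 CPM in spontaneous tumours on the ALIOS diet (median 244), 137 to 307 CPM in DEN tumours on the ALIOS diet (median 245) and 183 to 288 CPM in DEN tumours on the control diet (median 231), against medians of 254 and 246 CPM in ALIOS and control diet livers. Clec4g, Stab2, Eng and Kdr weigh most in the sum, with means of 58.2, 49.3, 45.7 and 42.5 CPM in ALIOS diet livers. Pecam1 and Emcn held means of 14.8 and 2.94 CPM there. A similar sum therefore does not show that endothelial content was the same. The single markers moved apart, with 10 of 10 tested. Between spontaneous tumours and liver Pecam1 (log2 fold change 0.81 ± 0.19, edgeR adjusted p = 0.0011), Emcn (1.39 ± 0.26, 0.00013) and Lyve1 (1.07 ± 0.44, 0.044) rose. The sinusoidal Clec4g fell by 0.82 (edgeR adjusted p = 0.014). Mural and stellate markers moved both ways, with 3 of 8 higher and 2 lower in the same comparison, and cholangiocyte markers with 3 of 7 higher and a sum of 31.7 to 309 CPM against 25.3 to 236 CPM. Macrophage markers were lower in 5 of 6. The part of these cell types in the levels of Notch3, Notch4, Dll4 and Hey1 was not tested.

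Tumours of the 2 kinds were compared on the ALIOS diet to ask whether DEN changed the pattern. None of the 10 members was called, and no gene of 14845 passed (0% called by edgeR), although 1079 had an unadjusted p below 0.05 and DESeq2 called 86 genes. The log2 fold changes of the members, DEN over spontaneous, lay between -0.51 and -0.08, and the standard errors between 0.19 and 0.48 leave room for differences of that size. Every one of the 10 members had a lower fitted level in the DEN tumours, the furthest being Hey1 (-0.51 ± 0.24, edgeR adjusted p = 0.65). The share of all genes with a lower fitted level was not computed, and the median log2 fold change over all genes was 0.004. The direction was not stable: Notch1 became 0.040 without T24, and Notch1 and Notch2 became 0.092 and 0.043 without T23 and T24. Values of the groups overlapped for every member.

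Diet was also compared among DEN tumours. None of the 10 members was called between 8 ALIOS and 5 control diet DEN tumours, where 0.0134% of 14944 genes were called (2 genes by edgeR, with 1273 at an unadjusted p below 0.05 and 152 called by DESeq2). The largest differences were in Notch1 (-0.61 ± 0.34, edgeR adjusted p = 0.69) and Hes1 (-0.53 ± 0.27, 0.64), both with lower values on the ALIOS diet. Hes1 values were 8.75 to 33.6 CPM on the ALIOS diet and 23.5 to 52.9 CPM on the control diet, and overlapped.

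The difference between the diet effect in DEN tumours and in liver was tested directly as an interaction, in which 2.27% of 15606 genes were called, 1.04% with a positive and 1.23% with a negative difference. Hes1 was the 1 of 10 members called, at -1.05 ± 0.27 (edgeR adjusted p = 0.035). Hes1 was higher on the ALIOS diet in liver (mean 8.69 against 6.05 CPM) and lower on it in DEN tumours (mean 24.3 against 35.1 CPM). The same number is the smaller rise of Hes1 from liver to DEN tumour on the ALIOS diet than on the control diet. The call was lost with all 6 groups in 1 fit (edgeR adjusted p = 0.051), without T17 (-1.01, 0.076), without T20 (-0.86, 0.11) and without T23 (-1.01, 0.052), and T20 held the highest Hes1 of all tumours. Hey1 (-1.34 ± 0.51, edgeR adjusted p = 0.16), Dll4 (-0.69 ± 0.26, 0.15) and Notch1 (-0.68 ± 0.29, 0.23) had differences of the same sign that did not pass.

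A further list of 51 genes of the pathway covered other ligands, receptor proteases, gamma-secretase, sugar transferases, ubiquitin ligases, the nuclear complex, corepressors, inhibitors and other targets. In spontaneous tumours 18 of 42 tested were higher and 7 lower than in liver, with a median log2 fold change of 0.20, where 26.9% of all genes were higher and 25.9% lower with a median of 0.01. DEN tumours had 20 higher and 5 lower of 42 on the ALIOS diet (median 0.30), where 27.7% of all genes were higher and 19.8% lower (median 0.08). On the control diet they had 20 higher and 6 lower of 41 (median 0.26), where 27.3% of all genes were higher and 24.4% lower (median 0.03). Members of the list thus changed in both directions. Between tumour groups and in the interaction, edgeR called 0 of the list.

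Nrarp, a Notch target that feeds back as an inhibitor, was called higher in all 3 comparisons with liver. It was at 0.104 to 0.847 CPM in ALIOS diet livers (median 0.529), at 1.08 to 3.36 CPM in spontaneous tumours (median 2.17) and at 0.475 to 3.75 CPM in DEN tumours on the ALIOS diet (median 1.77). Control diet livers held 0.197 to 0.716 CPM (median 0.334) and DEN tumours on that diet 1.45 to 2.64 CPM (median 1.90). Spontaneous tumours did not overlap with liver (log2 fold change 2.01 ± 0.25, edgeR adjusted p = 8.9e-07), nor did DEN tumours on the control diet (2.44 ± 0.25, 1.4e-07).

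Numbl, a relative of the Notch inhibitor Numb, rose by a log2 fold change of 2.11 ± 0.34 in spontaneous tumours (edgeR adjusted p = 2.1e-05), and by 1.89 ± 0.37 and 2.08 ± 0.25 in DEN tumours on the ALIOS and control diets. Neurl1b, a ubiquitin ligase for ligands, rose by 1.92 ± 0.49 and 2.29 ± 0.32 in the same DEN comparisons, and Dtx4, a Deltex ligase that acts on receptors, by 1.98 ± 0.15 on the ALIOS diet (edgeR adjusted p = 2.1e-08). Aph1b, a subunit of gamma-secretase, rose by 1.94 ± 0.27 in spontaneous tumours (edgeR adjusted p = 4.2e-06), from 1.85 to 3.51 CPM in ALIOS diet livers to 2.13 to 19.1 CPM.

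Hes6, Itch and Aph1a fell in all 3 comparisons of tumour with liver. Hes6, a family member that opposes Hes1, fell by 0.88, 1.56 and 0.82 on the log2 scale in spontaneous tumours and in DEN tumours on the ALIOS and control diets (edgeR adjusted p = 0.0034, 6.9e-05 and 0.0018). Itch, a ubiquitin ligase that lowers Notch, fell by 0.60, 0.70 and 0.56 (edgeR adjusted p = 6.6e-05, 7.9e-05 and 0.0030). Aph1a, the main counterpart of Aph1b, fell by 0.57, 0.51 and 0.52 (edgeR adjusted p = 4.9e-06, 6.2e-05 and 8.0e-05), so that the 2 subunits moved in opposite directions. Rbpj, the DNA-binding partner of the receptors, stayed at 4.86 to 10.1 CPM in all libraries, with log2 fold changes of -0.04, -0.04 and 0.11 that did not pass.

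By diet in liver, 1 of 39 genes of the list was higher (Tle3, a corepressor, 0.38 ± 0.11, edgeR adjusted p = 0.031) and 5 were lower, where 6.73% of all genes were higher and 4.51% lower. Aph1c and Aph1b fell by 0.94 each (edgeR adjusted p = 0.0058 and 0.0062) and Maml3, a coactivator of the nuclear complex, fell by 0.51 (0.014). Aph1b and Aph1c are near-identical copies, so counts could be split between them. Nrarp showed 0.52 ± 0.25 and did not pass (edgeR adjusted p = 0.17).

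**Figure D4:**
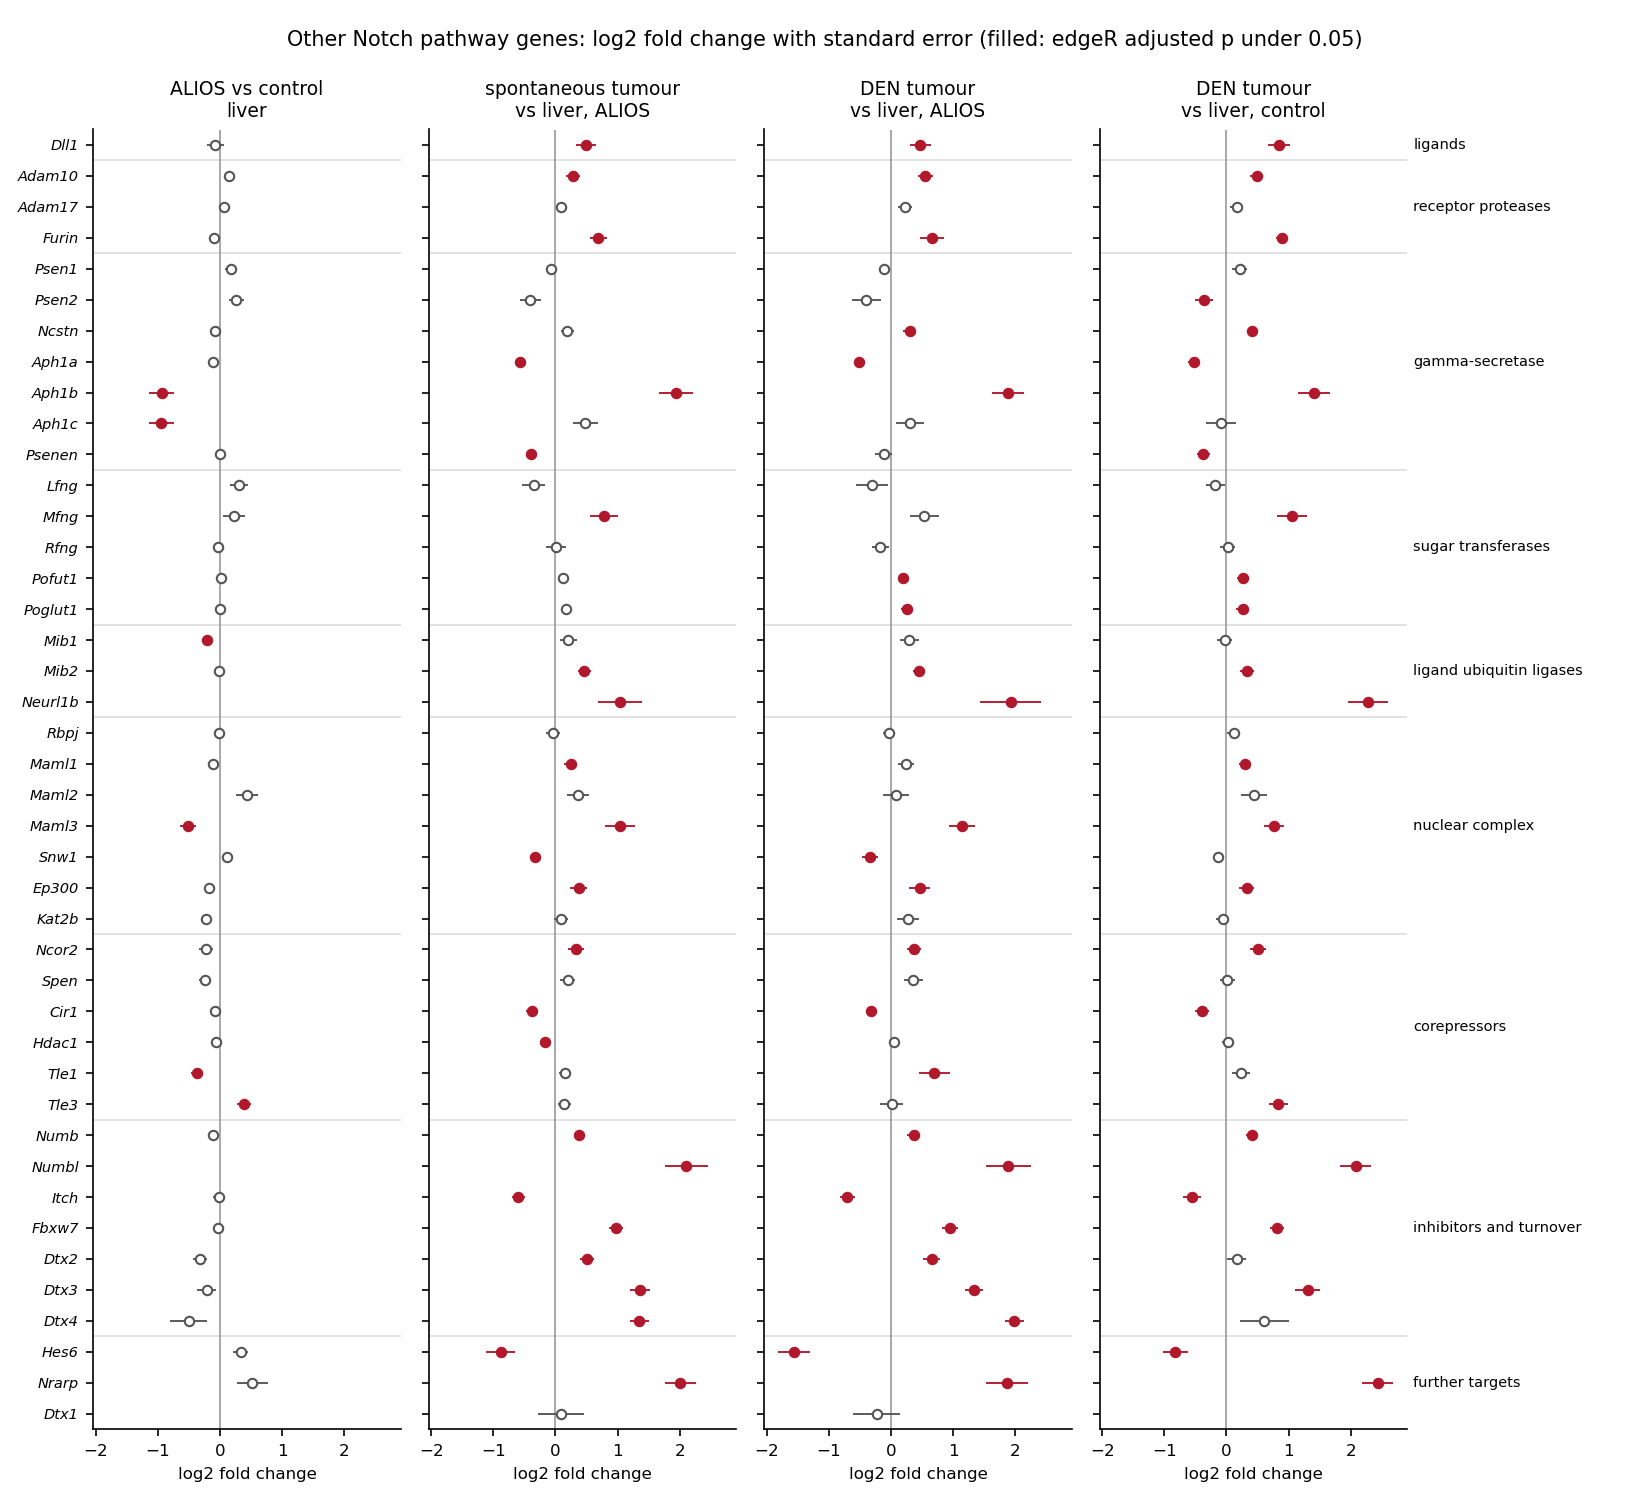
log2 fold change, with its standard error as a horizontal bar, of the other genes of the pathway list that were tested, ordered by role, in the 4 comparisons with liver as one side or both; filled red points passed the edgeR test at an adjusted p below 0.05. Numbl, Nrarp, Neurl1b, Aph1b and Dtx4 are among the points furthest to the right in 1 or more of the tumour panels, Hes6, Itch and Aph1a lie to the left, and in the panel on diet only Tle3 is filled to the right.

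Genes whose levels followed each member most closely within groups were found from deviations of log2 CPM from the group mean over 48 libraries (T1 and T7 left out), among 15984 genes. The libraries share depth and tissue composition, so these correlations are descriptions. Dll4 was closest to Efnb2 (r = 0.79), Rgl1 (r = 0.79) and Esm1 (r = 0.78). Notch2 was closest to Rapgef5 (r = 0.92), Prkca (r = 0.91) and Evi5 (r = 0.91), the highest values of any member. Notch3 was closest to Lamc1, Pcdhgc3 and Lmod1 (r = 0.73, 0.73 and 0.72), and Hey1 to Unc5b, St8sia4 and Abcb1a (r = 0.72, 0.69 and 0.65).

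The other members had other neighbours. Notch1 was closest to Ckmt1 (r = 0.81), Gm42679 and 1700007K13Rik, Notch4 to Rtkn (r = 0.68), Ap3s1-ps2 and Krt12, and Jag1 to Cep170 (r = 0.65), Zc2hc1a and Plxna3. Jag2 was closest to Sema3g (r = 0.75), Tex10 and B4galt6, and Hes1 to Sh3tc1 (r = 0.75), F2rl1 and Mroh3. For Heyl, whose closest gene was Mmd (r = 0.66), the value fell to 0.48 without T23 and T24. Among the members themselves the order of pairs rested on T23 and T24. With all libraries the closest were Notch2 and Hes1 (r = 0.63, and 0.46 without T23 and T24), Notch1 and Notch2 (r = 0.57 and 0.44) and Notch3 and Jag2 (r = 0.54 and 0.51). Without those tumours the closest were Notch2 and Notch3 (r = 0.52, against 0.39 with them) and Notch4 and Hes1 (r = 0.51 against 0.49).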

How the data were processed

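RNA was extracted from liver and tumour tissue and sequenced as 100 bp paired-end reads from a stranded mRNA kit. The deposited table holds raw counts per gene, which the authors made with HTSeq over Gencode M6 exons after a 2-pass STAR alignment (mm10). The strand option was not given in the sources used here. Groups were taken from the sample titles. Each comparison was fitted on the raw counts with edgeR 4.0.16 (R 4.3.3): filterByExpr, TMM, quasi-likelihood test, Benjamini-Hochberg adjustment over all genes tested, called at an adjusted p below 0.05, using only the groups compared. The standard error is the log2 fold change over the square root of the F statistic. CPM used TMM-adjusted library sizes over 49 libraries, and CPM per kilobase the union of exons of Gencode M21. DESeq2 1.42.0, RLE normalization, no filter, 1 fit of all 6 groups and left-out libraries were the alternatives. Depth ranged from 23798251 to 45751398 counts. Named genes were all 10 members, up to 3 called genes of the pathway list with the largest change in each direction, and the 3 genes closest to each member. Members and lists were chosen with earlier results of these data known.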

Additional observations from a re-analysis of the deposited data

Results flagged for a closer look

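Heyl in the DEN tumour T24 was at 0.441 CPM, far below the other 7 DEN tumours on the ALIOS diet (2.15 to 3.44 CPM). Of 20 groups of values searched in this way 1 held such a library, and chance gives about 1. Without T24 the diet difference in Heyl among DEN tumours changed sign, and neither value passed.

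The effect of diet on Hes1 differed between DEN tumours and liver by -1.05 on the log2 scale (edgeR adjusted p = 0.035, interaction). The call held in 8 of 12 alternatives. It was lost with all 6 groups in 1 fit, without T17, without T20 and without T23.

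The 1 control diet tumour without DEN, T7, entered no comparison. It lay above each of the 12 control diet livers in 9 of the 10 members: Notch1 (39.2 CPM), Notch2 (68.6 CPM), Notch3 (4.70 CPM), Notch4 (6.80 CPM), Jag1 (6.69 CPM), Jag2 (0.380 CPM), Dll4 (7.97 CPM), Hes1 (20.2 CPM) and Heyl (2.63 CPM). Hey1 was at 0.526 CPM there, within the control diet livers. With 1 library there is no replicate check. The share of all genes in T7 above every control diet liver was not computed, so the count of members has no background.

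Tumour T1, left out for its kidney transcripts, lay above every ALIOS diet liver in 6 members: Notch3 (10.8 CPM), Notch4 (11.02 CPM), Jag1 (8.76 CPM), Jag2 (2.63 CPM), Dll4 (8.59 CPM) and Heyl (4.11 CPM). These values describe that library, and the share of all its genes above every ALIOS diet liver was not computed.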

How the results depend on the processing

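Each of 66 pairs of member and comparison was recomputed under its alternatives, 809 values in all. Of these 781 kept their direction and side of the threshold, 8 lost the call, 7 gained it and 13 changed sign. None of the 13 was called on either side: Notch1 between tumour kinds became 0.040 without T24 and 0.092 without T23 and T24, and Notch2 there 0.043 without T23 and T24. For diet in DEN tumours Notch2 became 0.019 without T23 and T24, Hey1 ranged from -0.25 to 0.12 (T18) and Heyl from -0.24 to 0.0085 (T17) without 1 control diet tumour in turn, and Heyl became 0.072 without T24 and 0.068 without T23 and T24. In the interaction Notch2 became 0.068 without T24 and 0.14 without T23 and T24, and Notch4 ranged from -0.15 to 0.10 (T20) without 1 control diet DEN tumour in turn and became 0.051 without T23 and 0.11 without T23 and T24. The causes were not tested.

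With all 6 groups in 1 fit, 1 member was called for diet in liver and 0 in the interaction. All-gene counts in that fit were 623 for diet in liver, 403 between tumour kinds, 296 for diet in DEN tumours and 220 in the interaction, and with DESeq2 2451, 86, 152 and 646. For diet in liver, leaving out 1 liver in turn (chosen after seeing the data) gave 949 (N17) to 2343 (N13) genes, with 957 without N19. For diet in DEN tumours 2 genes became 1 with no filter, 14 without T24, and 0 without T23 or without T23 and T24, and 0 to 1 without each control diet DEN tumour in turn. Between tumour kinds 0 became 1 without T23 and T24. In the interaction 354 became 732 without T24, 636 without T23 and T24, and 174 (T17) to 446 (T21) without each control diet DEN tumour, with 191 without T18 and without T20, while members called were 0 to 1 in these and 0 without T23. Fits without T2, T3, T6, T23 or the livers were added after seeing the data.

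No paired analysis was possible because the labels number livers and tumours separately and tie no tumour to a liver of the same mouse. Depth limits Jag2 in liver, where 3 counts or fewer were found, and Hey1. Per kilobase of the longest transcript instead of the exon union, 24 group levels moved by more than their SD or, for the single tumour T7, by any amount, and 36 did not.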
